A study of Mus musculus with 6 samples.

Results

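MHC class II molecules show peptides from internalised protein to CD4 T cells, and 9 mouse genes of their assembly and peptide loading were followed across the 6 arrays of the series. The genes were H2-Aa, H2-Ab1 and H2-Eb1, H2-DMa and H2-DMb1, H2-Oa and H2-Ob, Cd74 and Ciita. They were found as non-control probes whose RefSeq accession belongs to a listed gene, which gave 11 probes for the 9 genes. The set had been drawn up with its values in view, in particular the level of H2-Aa at zeitgeber time (ZT) 8 and of H2-Ob at ZT16, so all their levels are given as a description with no test. Of the 9 genes, 8 were well above background on all 6 arrays and stood among the 24147 genes tested. Ciita was well above background on 2 arrays and did not pass the filter, which asked for 3.

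The RNA came from pancreatic islets, the endocrine cell clusters of the pancreas, freed with collagenase from male C57BL6 mice aged 8 weeks on chow, in a cycle of 12 h light and 12 h dark with lights on at ZT0. The 6 times ran from ZT0 to ZT20 in steps of 4 h, and for each time RNA of 3 to 5 mice was pooled and hybridised to 1 Agilent array with Cy3. No time point had a replicate, so time, pool and array cannot be told apart in any difference between arrays. By their scan identifier ZT8, ZT12, ZT16 and ZT20 came from 1 scan, while ZT0 and ZT4 each had an identifier not shared within the series. Between 66.1% and 84.4% of spots were well above background, and 0 were saturated. The islet hormone genes were bright on every array, with Ins1 from 6.99 to 8.29 log2 units above the 75th percentile of the array. Iapp ranged from 6.91 to 8.56 and Ins2 from 6.94 to 8.75. Of 9 endocrine cell markers 8 passed the filter, without Mafa, whose probe had an outlier flag at ZT0.

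A class II molecule is a pair of an alpha and a beta chain. Both chains fold in the endoplasmic reticulum around the invariant chain, encoded by Cd74, which blocks the groove and carries the pair to endosomes. There H2-DM removes the last fragment of the invariant chain so that peptide can bind, and H2-O restrains H2-DM. The genes of the alpha and beta chains, the invariant chain and H2-DM are on in B cells, dendritic cells and macrophages. These cells live in small numbers in islets. The same genes are switched on by CIITA, a coactivator that sits on factors bound to the X and Y boxes of their promoters.

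The promoters of the 9 genes were searched for the X and Y boxes, apart from the array values. In the RefSeq promoter windows of GRCm38.p6, 300 bases from 250 before to 50 after the start, 6 of the 9 genes had a window. H2-Ab1, Cd74 and Ciita had none. The letters GCAAC, from the X box that RFX binds, were searched 15 to 45 bases ahead of ATTGG, the Y box that NF-Y binds as an inverted CCAAT box, start to start on the same strand. The arrangement was present on the gene's strand in 4 genes, H2-Aa, H2-Eb1, H2-Oa and H2-Ob, with 30 to 33 bases between the starts. Over all 32851 windows 1.43% held it on either strand (0.7% on the gene's strand), 35.2% held GCAAC and 37.4% held ATTGG on either strand, and the 2 motifs do not overlap in this arrangement. Capitals mark GCAAC and ATTGG in the stretches below, written 5′ to 3′ on the gene's strand. H2-DMb1 is shown beside them with ATTGG alone.
H2-Aa (chr17:34287857-34287916, minus strand): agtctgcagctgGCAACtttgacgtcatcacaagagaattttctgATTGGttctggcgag
H2-Eb1 (chr17:34305764-34305822, plus strand): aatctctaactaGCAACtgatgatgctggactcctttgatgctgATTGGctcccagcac
H2-Oa (chr17:34092291-34092350, plus strand): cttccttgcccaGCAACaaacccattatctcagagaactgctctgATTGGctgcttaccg
H2-Ob (chr17:34238806-34238862, plus strand): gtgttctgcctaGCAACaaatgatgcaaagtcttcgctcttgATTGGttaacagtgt
H2-DMb1 (chr17:34153088-34153144, plus strand): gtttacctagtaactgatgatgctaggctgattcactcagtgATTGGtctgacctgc
The ATTGG lay 43 to 61 bases before the start in these 5 genes. Neither of the 2 windows of H2-DMa held the arrangement. A match describes letters and says nothing of binding in these samples. H2-Aa and H2-Ob, with the levels at ZT8 and ZT16 named above, carried the arrangement, as H2-Eb1 and H2-Oa did. A link between the arrangement and level was not tested. Along chromosome 17 the 7 H2 genes lie in the order H2-Oa, H2-DMa, H2-DMb1, H2-Ob, H2-Ab1, H2-Aa and H2-Eb1, with the class I loading genes Psmb9, Tap1, Psmb8 and Tap2 between H2-DMb1 and H2-Ob. Cd74 and Ciita are on other chromosomes.

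The 8 genes shared a low level at ZT16 and ZT20. Levels are processed signals on a log2 scale, with the array's own 75th percentile subtracted, and each array was set against the median of the same probe on the other 5. At ZT16 all 8 genes were at least 2-fold below that median, where 13.7% of all genes tested were, and at ZT20 all 8 were, where 12.4% of all genes were. For 7 of the 8, ZT16 and ZT20 were the 2 lowest arrays, against 16.4% of all genes. H2-Aa was the exception. ZT4 was the highest array of 6 of the 8 genes, against 23.4% of all genes, and of 3 of the 8 with quantile normalization, with normexp background correction before it, and in the authors' deposited table. In bulk RNA, fewer cells of a type and less RNA per cell cannot be told apart.

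On the ZT4 array 7 of the 8 genes were at least 2-fold above the median of the others (all genes, 21.8%), and H2-Aa alone was at least 2-fold below it (all genes, 21.5%). That array had the lowest 75th percentile, 506 beside 1229 to 2090 on the others. Before scaling, no member had its highest signal at ZT4. The signal of H2-Ab1 was 176449 there and 329116 at ZT0, and that of Cd74 62698 there and 146980 at ZT12. With quantile normalization the count above at ZT4 was 4 of 8, namely H2-DMa, H2-DMb1, H2-Oa and Cd74 (all genes, 17.7%). In the authors' deposited table the count was also 4 (all genes, 17.2%). On the ZT12 array 6 genes were above (17.0%) and 0 below (20.3%). On ZT8, 4 genes were above (8.47%) and 1, H2-Ob, was below (2.01%). On ZT0, 3 genes were above (16.8%) and 3 below (19.7%). No member was above at ZT16 or ZT20, where 10.7% and 12.8% of all genes were. These shares are the background of each count. The arrays are those the genes were chosen on, so nothing further is read from them.

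**Figure D1:**
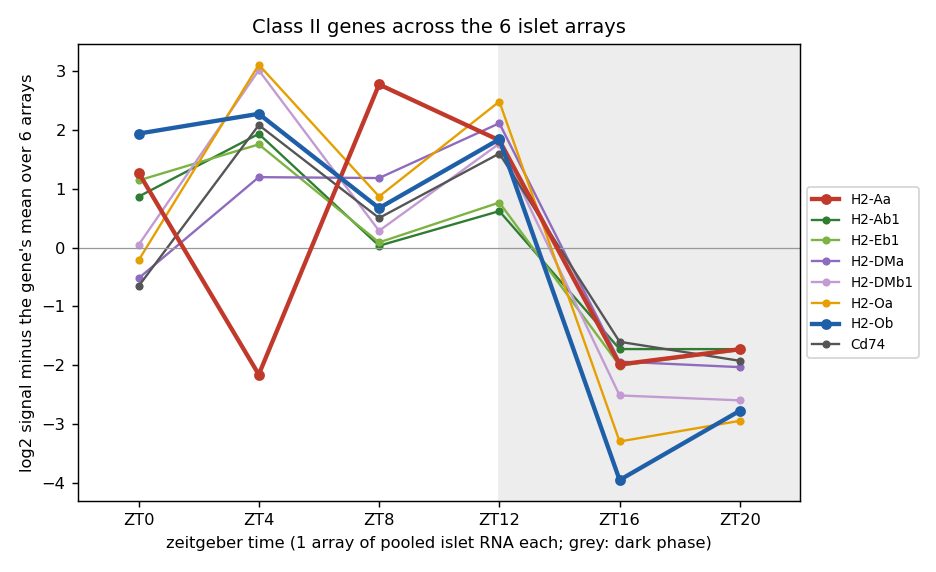
Log2 signal of the 8 tested class II genes minus each gene's own mean over the 6 arrays (vertical axis), by zeitgeber time (horizontal axis, dark phase in grey). Each point is 1 array of pooled islet RNA. H2-Aa lies at -2.16 at ZT4, where the other 7 lie between 1.20 and 3.11.

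Of the classical chains, H2-Ab1, the beta chain of the A molecule, and H2-Eb1, the beta chain of the E molecule, ran together. H2-Ab1 was at 7.38, 8.45, 6.55, 7.13, 4.79 and 4.79 log2 units from ZT0 to ZT20. It was thus highest at ZT4 and level at ZT16 and ZT20. H2-Eb1 was at 7.16, 7.78, 6.11, 6.79, 4.02 and 4.28 at the same times. Its profile lay closest of all pairs of members to that of H2-Ab1, with a root mean square difference of 0.19 log2 units over the 6 arrays after each gene was centred on its mean. C57BL6 mice carry the b haplotype, in which the partner of H2-Eb1, H2-Ea, is not expressed, and no probe was matched to H2-Ea here. The ZT4 excess of these 2 genes was sensitive to scaling. H2-Ab1 at ZT4 stood 1.90 log2 units above the median of the others, and 0.77 above with quantile normalization. H2-Eb1 stood 1.67 above, and 0.19 above with quantile normalization, where its highest array was ZT12.

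H2-Aa, the alpha chain that pairs with H2-Ab1, ran apart from its partner. Its probe was at 0.09, -3.34, 1.59, 0.64, -3.17 and -2.91 log2 units from ZT0 to ZT20. ZT0, ZT8 and ZT12 were thus high and ZT4, ZT16 and ZT20 low. Before scaling, the signal was 2106, 49.9, 6282, 2580, 137 and 184 at the same times. The low values thus came from faint signals of 1 probe. At ZT8 it stood 4.50 log2 units (22.6-fold) above the median of the other 5 arrays. That median is one of the low arrays, and without ZT4 the ZT8 value fell to 3.00 log2 units (7.98-fold), without ZT16 to the same 3.00, and without ZT20 to 3.13 (8.73-fold). Among the arrays of the shared scan, H2-Aa at ZT8 was 1.93-fold above ZT12, 27.0-fold above ZT16 and 22.6-fold above ZT20.

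The departure of H2-Aa from the other members was widest at ZT4. After each gene was centred on its mean, H2-Aa was at -2.16 on that array and the median of the other 7 at 2.08, a gap of -4.24 log2 units. The gap was -3.14 with quantile normalization, -3.14 in the authors' deposited table, -2.78 with normexp background correction and quantile normalization. At ZT8 H2-Aa was at 2.77 and the other 7 between 0.03 and 1.18. At ZT0, ZT12, ZT16 and ZT20 H2-Aa lay within the range of the other 7. Its probe was the only one matched to the gene, and its spot was well above background on each of the 6 arrays with no outlier flag. Its nearest member was H2-DMa, at a root mean square difference of 1.69 log2 units, and its farthest H2-Oa, at 2.49.

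**Figure D2:**
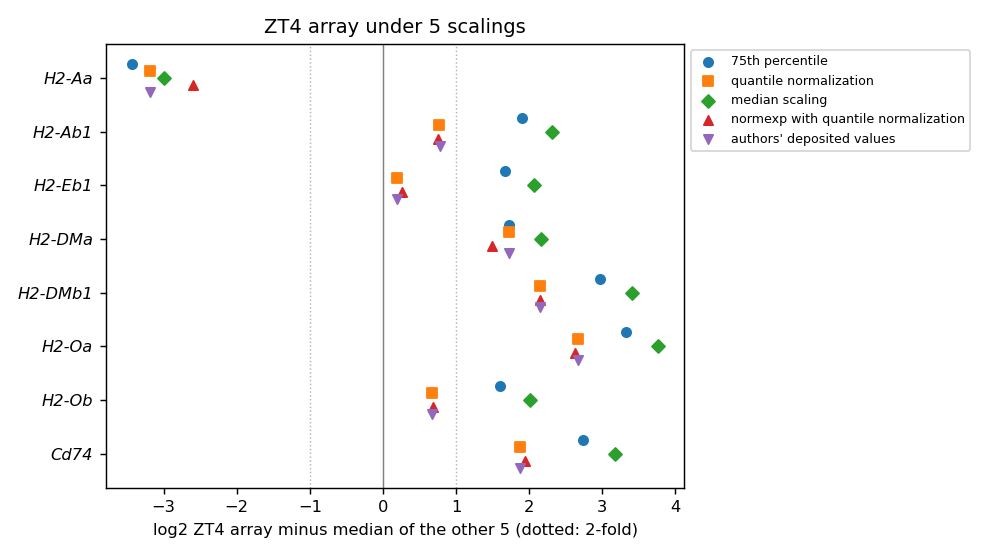
Log2 difference of the ZT4 array from the median of the other 5 arrays (horizontal axis) for the 8 tested genes (vertical axis) under 5 scalings, each a marker; dotted lines mark 2-fold. H2-Aa is at least 2.60 below 0 under all 5 scalings, while H2-Eb1 ranges from 0.19 to 2.07 above it.

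H2-DM, which loads peptide, is made of the chains H2-DMa and H2-DMb1. H2-DMa was at -1.20, 0.52, 0.51, 1.44, -2.61 and -2.71 log2 units from ZT0 to ZT20, and was highest at ZT12. No other member was highest there at this scaling, but H2-Eb1 and Cd74 were with quantile normalization and in the authors' deposited table. H2-DMb1 was at 2.65, 5.62, 2.89, 4.37, 0.09 and 0.01 at the same times. It was highest at ZT4, where it stood 2.97 log2 units above the median of the others, and level at ZT16 and ZT20. The root mean square difference of the 2 chains was 0.93 log2 units. H2-DMb2, a near copy of H2-DMb1, had 1 probe that was not well above background on any array. How far the probe of H2-DMb1 also reads H2-DMb2 was not tested.

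H2-O, the inhibitor of H2-DM found mainly in B cells and thymic epithelium, is made of H2-Oa and H2-Ob. H2-Oa was at 1.23, 4.55, 2.31, 3.93, -1.85 and -1.496 log2 units from ZT0 to ZT20, a range of 84.5-fold. H2-Ob was at 3.80, 4.14, 2.54, 3.71, -2.08 and -0.91 at the same times, a range of 74.6-fold. The range of H2-Ob was 6.22 log2 units on this probe and 4.48 on its second probe. At ZT0 this probe of H2-Ob stood 1.27 log2 units above the median of its other arrays and H2-Oa 1.09 below, while the second probe of H2-Ob stood 0.67 below, on the same side as H2-Oa. The median range over the 8 members was 4.54 log2 units, from 3.66 to 6.40, beside a median of 2.10 over all genes.

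At ZT16 H2-Ob was 5.79 log2 units (55.3-fold) below the median of the other 5 arrays. Among the 4 arrays of the shared scan the value was 4.62 log2 units (24.6-fold) below. The second probe of H2-Ob was at 0.57, 2.41, 1.24, 2.21, -2.07 and -0.34 log2 units from ZT0 to ZT20. It too was lowest at ZT16, at 3.31 log2 units (9.94-fold) below the median of its other arrays. The mean of both probes gave 4.26 log2 units (19.2-fold) below. The size of the ZT16 departure thus depended on the probe, while its direction did not. It was larger than that of H2-Aa at ZT8 on the first probe alone.

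**Figure D3:**
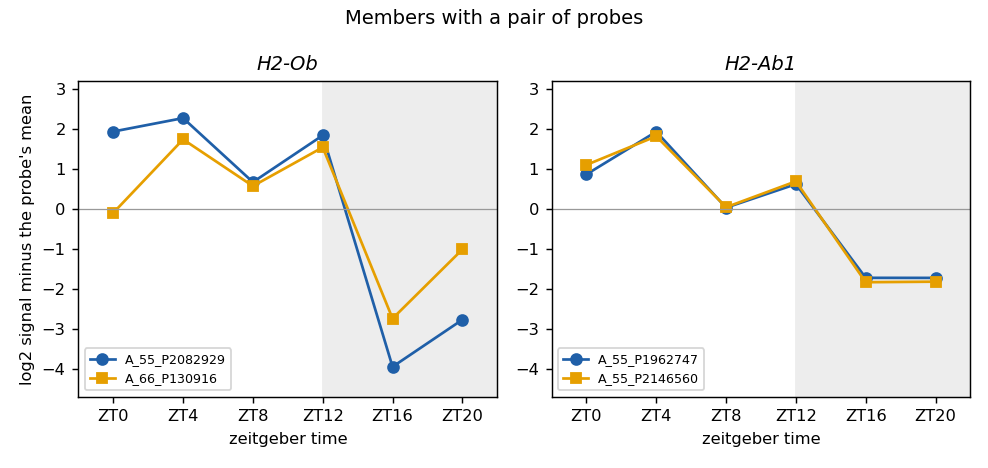
Log2 signal minus the probe's own mean over the 6 arrays (vertical axis) by zeitgeber time (horizontal axis, dark phase in grey) for the 2 probes of H2-Ob (left) and of H2-Ab1 (right). The H2-Ob probes part by 2.03 at ZT0, and the H2-Ab1 probes by at most 0.24.

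The 2 probes of H2-Ab1 kept within 0.24 log2 units of each other on every array, and 3.10% of the 3771 genes with at least 2 tested probes had so small a largest difference or a smaller one. Those of H2-Ob parted by up to 2.03 log2 units, at ZT0. A largest difference of that size or more was found in 24.7% of the 3771 genes, whose median was 1.37. On the ZT0 array the probe of H2-Ob with the higher mean was 1.27 log2 units above the median of its other arrays, and the other probe 0.67 below.

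Cd74, the invariant chain, was at 4.21, 6.95, 5.38, 6.47, 3.27 and 2.95 log2 units from ZT0 to ZT20. It was highest at ZT4, then ZT12, with ZT16 and ZT20 lowest. In the authors' deposited table ZT12 was highest (16.8 log2 units) and ZT4 next (16.4). Of the other members H2-DMa was nearest to it, at a root mean square difference of 0.52 log2 units. H2-DMb1 and H2-Oa, with profiles 0.53 apart, formed the next closest pair.

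Ciita, the transactivator, was dim. Its probe was at -3.13 at ZT0 and -3.95 at ZT4, where it was well above background, and at -5.92, -6.01, -5.14 and -5.35 from ZT8 to ZT20, where it was not. Before scaling, its signal was 226 at ZT0 and 32.8 at ZT4, then 34.5, 25.7, 34.8 and 33.9 from ZT8 to ZT20. The ZT4 signal thus lay among those of the arrays where Ciita was not detected, and its higher scaled value there came with the low 75th percentile of that array, 506 beside 1229 to 2090 on the others. No fold is given. At ZT12, where 6 of the 8 other members were at least 2-fold above the median of their other arrays, Ciita was not well above background.

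**Figure D4:**
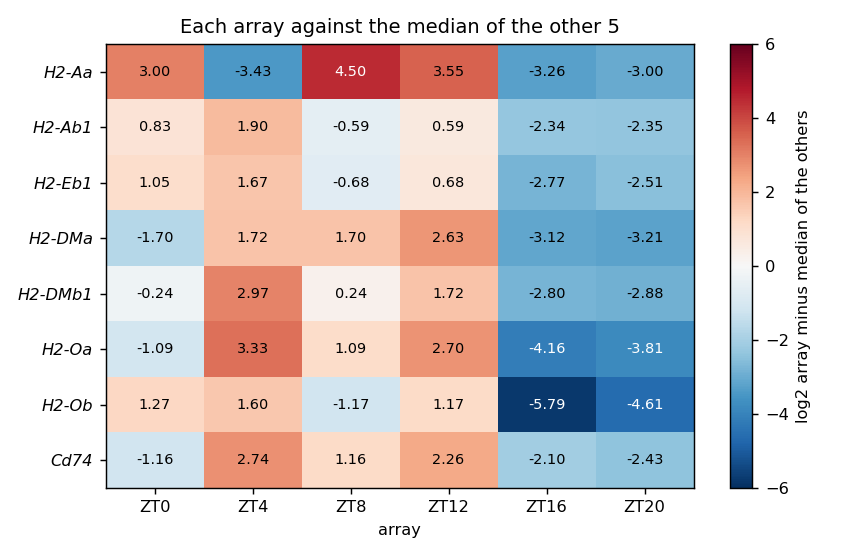
Log2 difference of each array from the median of the same probe on the other 5 arrays, for the 8 tested genes (rows) and the 6 arrays (columns); red is above and blue below. All 8 genes are blue at ZT16 and ZT20, with H2-Ob at -5.79 at ZT16, and H2-Aa is blue at ZT4 (-3.43) and reddest at ZT8 (4.50).

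The series spaced its arrays to follow a day, and a 24 h cosine was fitted to all 24147 genes with limma. Of these, 0 (0%) passed at an adjusted p of 0.05, the smallest adjusted limma p being 0.754, and 968 (4.01%) had an unadjusted p under 0.05. The fitted peak minus trough of the members is given without a test. It was 3.23 ± 1.002 (SE) log2 units for H2-Ab1 with a peak at ZT5.05, 3.35 ± 1.06 for H2-Eb1 at ZT4.97 and 3.15 ± 1.90 for H2-Aa at ZT8.50. For H2-DMa it was 4.07 ± 0.999 at ZT7.73 and for H2-DMb1 4.86 ± 1.37 at ZT6.21. For H2-Oa it was 5.97 ± 1.49 at ZT6.60, for H2-Ob 5.67 ± 1.64 at ZT5.33 and for Cd74 3.69 ± 1.06 at ZT7.14. The SE of H2-Aa was the largest of the 8. The peak times moved with the fit. With scan as a covariate they lay between ZT6.98 and ZT9.80, and that of H2-Ab1 was ZT9.08. In that fit ZT0 and ZT4 each had a scan of their own, so the cosine rested on ZT8 to ZT20 alone. With single arrays left out that of H2-Aa ran from ZT6.06 to ZT10.83, and that of H2-Ab1 from ZT3.69 to ZT5.96. The median over the 8 was 3.88, beside 1.33 over all genes.

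Error within an array was far below these differences, but it is no measure of spread between mice. Each member probe had 1 spot, and the scanner software's own error was 10% to 14.3% of the signal for member spots well above background. In probes with 10 spots the SD between spots had a median of 0.054 to 0.088 log2 units, depending on the array.

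Genes that act with class II were followed in lists, with counts of genes at least 2-fold below the median of the other arrays at ZT16 (all genes, 13.7%). Among costimulatory genes, whose products give T cells the second signal, 3 of 5 were. Cd86 was at 0.43, 2.67, 0.11, 2.16, -3.11 and -2.85 log2 units from ZT0 to ZT20, Icosl ranged over 42.6-fold and Cd40 over 39.9-fold, each lowest at ZT16. Of 13 interferon gamma pathway genes 10 were, with Irf8, a factor of myeloid and B cells, at 4.73 at ZT12 and -0.15 at ZT16. Cxcl9 ranged over 22.3-fold and Gbp2 over 20.2-fold. Of 14 class I genes 9 were, led by Nlrc5, the class I transactivator, with a range of 36.1-fold. Psmb8, of the immunoproteasome, was highest at ZT12 and lowest at ZT20.

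Among lysosomal processing genes 3 of 8 were at least 2-fold below at ZT16. Ifi30, which reduces disulfide bonds of antigens, was at 0.11, 3.24, 2.17, 3.83, 0.20 and -0.17 from ZT0 to ZT20. Ctss, the protease that trims the invariant chain, was highest at ZT0 (6.83) and lowest at ZT16 (3.01). Marchf1, a ubiquitin ligase that takes class II from the surface, was highest at ZT0 and lowest at ZT12. Of the 7 promoter-binding factors 3 were at least 2-fold below at ZT16 and 4 at ZT4 (all genes, 21.5%). Nfya and Nfyb, of NF-Y, were highest at ZT0, and Rfxank, of RFX, ranged over 4.09-fold and was highest at ZT12. Their list medians stayed between -0.81 and 0.36, a narrower span than the -1.995 to 2.01 of the class II members. Of the other genes of the region, H2-Eb2 ranged over 39.1-fold with its lowest value at ZT16. Btnl2 was also lowest at ZT16, where it was not well above background. In each of these lists 0 genes passed the cosine test over all genes.

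Most markers of B cells, dendritic cells and macrophages, which carry class II, and of T cells were low at ZT16, as the class II genes were. At least 2-fold below the median of their other arrays there were 7 of 9 B cell, 8 of 10 dendritic cell, 9 of 10 macrophage and 4 of 6 T cell markers (all genes, 13.7%). Of the 9 B cell markers 1 was at least 2-fold above at ZT16 (all genes, 10.7%) and 2 were at least 2-fold below at ZT4 (all genes, 21.5%). Of the 10 dendritic cell markers 1 was highest at ZT16 (all genes, 17.3%). The median deviation of the class II genes from each gene's mean was 0.45, 2.01, 0.59, 1.79, -1.995 and -1.98 log2 units from ZT0 to ZT20, while over all genes it stayed between -0.03 and 0.06. For 9 of 9 measured B cell markers it was 0.47, 1.58, 0.58, 1.61, -2.35 and -2.02, and their summed signal, in multiples of the 75th percentile, ran from 4.19 at ZT20 to 139 at ZT4. Cd79b, a chain of the B cell receptor complex, was at 6.38 at ZT4 and 0.56 at ZT16, and Ms4a1, a B cell surface protein, at 3.57 and -0.55.

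For 10 of 10 dendritic cell markers the median was 2.04 at ZT12 and -2.34 at ZT16, and their summed signal ran from 1.29 at ZT16 to 48.1 at ZT12. Ccr7, the receptor of migrating dendritic cells that T cells share, ranged over 79.3-fold, Itgax over 14.6-fold and Cd209a over 21.2-fold. For 10 of 11 macrophage markers, without Cd68, the median was 1.5 at ZT4 and -1.84 at ZT16, and the sum ran from 16.0 at ZT16 to 339 at ZT4. Lyz1, Csf1r and C1qc were highest at ZT4, with ranges of 21.9-fold, 21.9-fold and 26.5-fold. The sum includes Lyz1, and whether its signal came from macrophages was not tested. Mouse T cells do not make class II. The median of 6 of 6 T cell markers was 2.70 at ZT12 and -3.45 at ZT16, with a sum from 11.8 at ZT20 to 171 at ZT4. Lck and Cd3d ranged over 67.1-fold and 127-fold. Cd3e went the other way at ZT16, where it was at 4.63, above the median of its other arrays, and it was lowest at ZT0 (3.36). It is part of the sum of 26.1 at ZT16. The part of these cell types in the class II values was not tested.

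Of the other cells, endocrine, acinar and intestinal markers had medians above 0 at ZT16 and endothelial markers one below 0. The 8 endocrine cell markers had their lowest median at ZT12 (-2.37) and stood at 0.99 at ZT16, with a summed signal from 448 at ZT12 to 1117 at ZT0. The 5 acinar markers had -1.20 at ZT12 and 0.04 at ZT16, and their sum ran from 280 at ZT12 to 1103 at ZT4. Ctrb1, Cpa1 and Pnlip, genes of digestive enzymes, were each lowest at ZT12. The 4 intestinal epithelium markers, of which Spink4 ranged over 2654-fold, had 3.49 at ZT4 and a sum from 0.91 at ZT12 to 144 at ZT4. Fabp2 was likewise highest at ZT4, and Vil1 at ZT16. The 5 endothelial markers ran from -0.70 at ZT20 to 0.71 at ZT12 and stood at -0.44 at ZT16, with a sum from 7.70 at ZT20 to 16.4 at ZT0. Kdr was highest at ZT0, Lyve1 at ZT4 and Vwf at ZT12. Vwf was 4.46-fold below the median of its other arrays at ZT16.

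**Figure D5:**
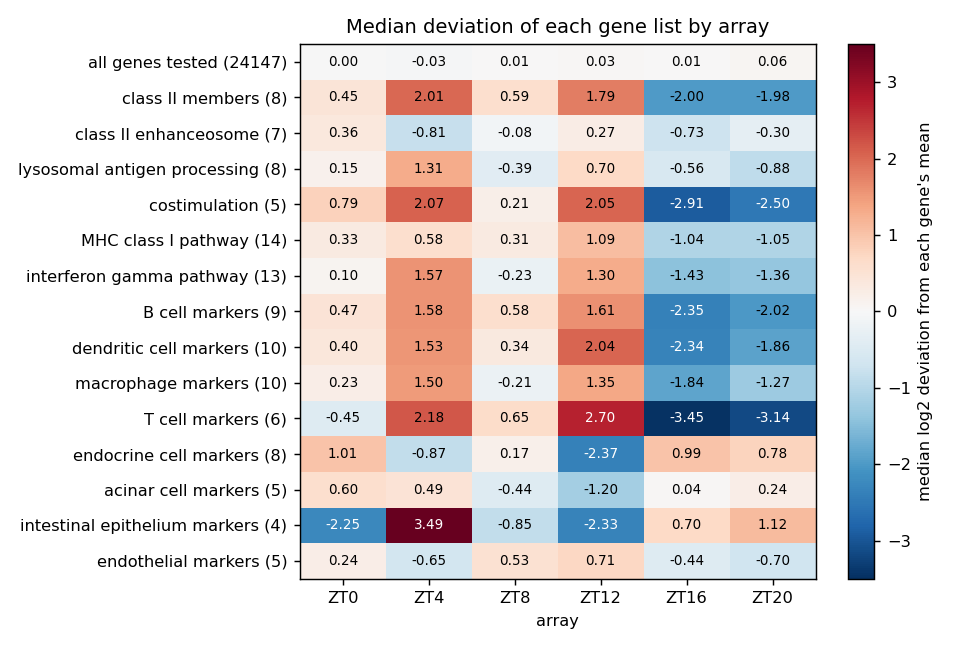
Median deviation of each list from each gene's own mean over the 6 arrays, in log2 units (colour and number), by list (rows, with the number of genes tested) and array (columns). Class II genes are at -1.995 and -1.98 at ZT16 and ZT20, and endocrine cell markers at 0.99 and 0.78.

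The genes with profiles most like those of 3 members were sought among 16817 named genes tested, by the root mean square difference over the 6 arrays after centring. Nearest to Cd74 were Zc3h12a (0.09 log2 units), Nfkb2 (0.15), Flt3l (0.16), Gnb4 (0.17) and Gsdmd (0.17). Nearest to H2-Ob were Gpr174 (0.24), Arhgap9 (0.27), Btla (0.27), Fam169b (0.32) and Cxcl12 (0.32). Nearest to H2-Aa were Kcne4 (0.32), Dock2 (0.56), Arhgef1 (0.62), Lyz2 (0.64) and Msc (0.64). The probes of Kcne4, Arhgef1 and Msc were not well above background at ZT4, ZT16 and ZT20, that of Gnb4 at ZT16 and ZT20, and that of Dock2 at ZT16, so their places rest in part on undetected values. The nearest member to H2-Aa, H2-DMa, came at rank 1208 when placed among the named genes. In the same way the nearest member to H2-Ob, H2-Oa, came at rank 323, and that to Cd74, H2-DMa, at rank 303.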

How the data were processed

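Per the file headers, the authors' Agilent Feature Extraction 11.0.1.1 files hold a linear intensity per spot (the processed signal) made with a one-colour protocol, with its error and columns of 0 or 1 flags; no normalization between arrays was seen in its values. The authors' deposited table of log2 values held 30170 probes; its making is not given in the sources used here, but its column medians of 8.62 to 8.63 and its correlation with the log2 signal of its own array (Pearson's r of 0.9987 to 0.9998 across probes) show its scale to be log2, not centred by gene.

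Control spots were dropped, spots of a probe averaged, and log2 values scaled to the 75th percentile of all probes of the array. Names came from RefSeq accessions of GRCm38.p6, which matched 27234 of 39429 probes (69.1%). Alternatives were quantile, median and normexp scaling (normexp on median signals, offset 50), the deposited table, the mean of probes, other filters, a 3-fold limit, scan as a covariate or the shared scan alone, and arrays left out. The files name the older build mm9, so no gene coordinates were carried over. A probe was tested when any of its spots was well above background on at least 3 arrays and on no array were all its spots outliers; 1415 probes failed only the latter. The probe with the highest mean stood for a gene. The cosine fit used limma 3.58.1 in R 4.3.3 with Benjamini-Hochberg adjustment. Its code was run on simulated data with a noise level set in advance, which says nothing of its power on these arrays. Python 3.11.15 did the rest. Members and lists were chosen with earlier results of these data known. Named genes were all members, the 5 nearest to H2-Aa, H2-Ob and Cd74 (Ciita, not tested, got none), and 3 per list, by widest range or, for markers, highest mean. One marker gene that this rule names is not reported here. The number of arrays limits the precision.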

Additional observations from a re-analysis of the deposited data

How the results depend on the processing

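No paired analysis was possible because each time point had 1 array. With no replicates, a log2 value counts as kept when it moves by less than 1.5-fold, and a count when it stays within 1.5 times; a cosine amplitude counts as kept within 1 SE of the value as reported. Of 321 combinations of a main result and an alternative 274 kept their value and 0 reversed. Of 120 for the members' cosine amplitudes 110 kept theirs. Only a log2 value of at least 2-fold could be labelled reversed, never a count or an amplitude. Some alternatives could not change the values of the 8 members, which were well above background on all 6 arrays with no outlier flag. Asking for all 6 arrays and keeping outlier spots each kept 30 of 30, and dropping the filter, also 30 of 30, only added Ciita. At ZT16 and ZT20 all 8 members stayed at least 2-fold below whichever other single array was left out; without ZT4 and ZT12 together 7 did at ZT16. Cosine calls stayed at 0 with any array left out and in each scaling. With scan as a covariate only ZT8 to ZT20 set the cosine, so no count of calls is given there.

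The count of members above at ZT4 was 4 with quantile normalization, 4 with normexp and 4 in the authors' deposited table, against 7. The median of the members at ZT4 was 1.17, 1.09 and 1.17 in the same settings, and the gap of H2-Aa there was -3.14, -2.78 and -3.14 (settings chosen after seeing the data). At ZT0 the count above was 1 in each of these settings, 1 at a 3-fold limit, where the count below was also 1, and 1 to 5 with single arrays left out; the count below then ran from 0 to 3. At ZT8 the count above was 8 in the shared scan, 2 at 3-fold and 1 to 6 with arrays left out. The lone member below at ZT8, H2-Ob, became 2 members with median scaling and 0 with quantile normalization, normexp, the authors' values, the mean of probes, the shared scan or a 3-fold limit, and 0 to 1 with arrays left out. The median at ZT8 was 1.20 in the shared scan. Without ZT4 and ZT12 together, a setting chosen after seeing the data, 7 members were above and 0 below at ZT0, and 8 above and 0 below at ZT8. H2-Aa at ZT8 ran from 3.00 to 4.63 with arrays left out. H2-Ob at ZT16 ran from -5.84 to -5.20, and was -4.26 with the mean of probes and -4.62 in the shared scan. Fewer arrays change the median of the others by construction; the cause of the scaling differences was not tested. Median scaling put the median of all genes at ZT12 at 0.29 log2 units, against 0.03 as reported.

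Leaving out ZT8 took the amplitudes of the 7 other members past 1 SE; that of H2-Aa was then 1.57, against 3.15, within its SE of 1.90. It was 5.50 without ZT0, 5.68 without ZT4 and 5.31 when scan was a covariate. Dimness limits Ciita, and a single probe limits H2-Aa.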

Other observations

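H2-Aa was not the only immune gene low at ZT4 while related genes were high there. The lysozyme genes Lyz1 and Lyz2 are close copies of each other, and both were placed in the macrophage list. Lyz2 was at -0.05, -3.28, 1.15, 1.82, -4.01 and -2.51 log2 units from ZT0 to ZT20, and Lyz1 at 6.25, 6.82, 4.79, 5.75, 2.37 and 2.55. Lyz2 was thus low and Lyz1 highest at ZT4. Of the 4 intestinal epithelium markers 2 were likewise highest at ZT4, and which cells gave the Lyz1 signal was not tested. Tap1, which pumps peptide for class I, was at -2.73, -4.50, -1.26, -0.57, -4.92 and -4.60, low at ZT4 where its genomic neighbour Psmb8 was at 3.45. Lyz1, Lyz2 and Tap1 each had 1 matched probe, and how far the lysozyme probes read each other's gene was not tested.

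Arhgef1, a lymphocyte signalling gene among the 5 nearest to H2-Aa, had 2 probes that went apart. The tested probe was at -4.49, -7.21, -2.65, -5.20, -7.48 and -7.19 log2 units from ZT0 to ZT20 and was well above background on 3 arrays, not at ZT4. The other, left out for an outlier flag, was at 4.89, 4.60, 3.96, 4.65, 1.72 and 1.65, well above background on all 6, and was high at ZT4. Dock2, a regulator of lymphocyte migration, was at -4.21 at ZT4 and -0.63 at ZT8 on its tested probe, and its other probe was well above background on 1 array only. These genes were singled out after their values were seen, apart from their place in the lists and among the nearest genes, and no cause was tested.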
